A study of Homo sapiens with 6 samples.

Results

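The BCL2 family, the caspases and the inhibitors of apoptosis were examined as 32 listed genes on 6 PrimeView arrays of the human neuroblastoma line SH-SY5Y, whose cells resemble sympathetic neuron precursors. A probe set, a group of probes that reports on a transcript or several transcripts of a gene, was counted as a member where the annotation gave it 1 gene and that gene was listed. This gave 115 probe sets of 49293 tested, for 30 of the 32 genes. BIRC3 and RIPK1 had no probe set of this kind in the table used and were not analysed here. The tested cells received endosulfan, an organochlorine insecticide, at 3 µM for 24 h (3 arrays), and the other cells are labelled control (3 arrays), with no vehicle named in the sources used here. Both were grown in medium with serum. Values are log2 levels after RMA, the normalisation and summary method used by the authors. The labels call the arrays biological replicates without naming cultures or passages, so the p-values below measure the spread between these samples, which may be technical. The question was whether transcripts of the cell death machinery differed after exposure.

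Apoptosis through mitochondria is set by the balance within the BCL2 family. Pro-survival members hold the pore-forming effectors in check, and BH3-only proteins, which share just the BH3 helix with the family, bind and neutralise the pro-survival members or activate the effectors. Once the outer mitochondrial membrane is permeable, cytochrome c reaches APAF1 and caspase 9 is activated, while inhibitor of apoptosis proteins (IAPs) restrain caspases or mark proteins for degradation. Death receptors reach the same end through FADD and caspase 8, and the caspase 8 gene is silenced in many neuroblastoma lines.

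No member transcript passed the test. With limma and Benjamini-Hochberg adjustment over all 49293 probe sets, 0 of the 115 member probe sets had an adjusted p below 0.05, against 0.00811% of all probe sets (4 probe sets, of EGR1 and FOS), and the smallest adjusted p of a member was 0.215. An ordinary linear model without moderation also called 0, but it called 0 of all probe sets too, those of EGR1 and FOS included. With arrays weighted by their fit, 16 members (13.9%) were called, against 14.4% of all probe sets, under weights that ran from 0.359 for control 1 to 5.43 for endosulfan 3. At an unadjusted p below 0.05 there were 6 member probe sets higher in endosulfan arrays, which is 5.22% of the members against 6.30% of all probe sets, and 12 lower, which is 10.4% against 9.21%. Groups that did not overlap were about as frequent as on the whole array: 13 member probe sets (11.3%) had every endosulfan array above every control array, against 11.5% of all, and 10 (8.70%) had every endosulfan array below, against 9.24%. Leaving out 1 array moved the counts at an unadjusted p below 0.05: 3 were higher without endosulfan 1, control 1 or control 3, 10 without endosulfan 2 and 17 without control 2, and 7 were lower without control 1. Over all probe sets the shares also moved, from 3.22% to 8.71% higher and from 5.64% to 11.5% lower. The median log2 difference, endosulfan minus control, was 0.09 over the members and 0.05 over all probe sets. These shares lie near those of the whole array, and the values below are given for single transcripts that did not pass. In RNA from whole cultures, fewer cells of a type and less RNA per cell cannot be told apart.

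Each gene was also represented by its brightest probe set, judged by the mean of all arrays. On this scale 4 of 30 genes were higher at an unadjusted p below 0.05 (13.3%, against 6.64% of 18132 genes) and 3 were lower (10.0%, against 10.5%). The 4 were ENDOG, CASP8, CASP9 and FADD, and the 3 were CASP2, XIAP and BIRC6. None passed after adjustment, and the smallest adjusted p was 0.197 for CASP2 (limma), whereas EGR1 was the 1 gene past the threshold (0.00552% of genes). The count of higher genes was 2 without endosulfan 1 or control 1 and 1 without endosulfan 3 or control 3, and that of lower genes was 5 without endosulfan 2. With 1 array left out, the shares of all genes ran from 3.04% to 10.1% higher and from 5.88% to 13.6% lower. Among the 30 genes the groups stood apart with endosulfan above in 4 (13.3%, against 12.4% of all genes) and with endosulfan below in 2 (6.67%, against 10.2%). The precision allows limits to be set for the brightest probe sets only. The 95% interval of the difference lay within a 2-fold change either way for 27 of the 30 genes and within 1.5-fold for 13, each interval taken by itself. The exceptions at 2-fold were ENDOG (0.01 to 1.03), CASP2 (-1.12 to -0.26) and BIRC6 (-1.19 to -0.05). These intervals are from the fit over genes, and the errors and p-values of single probe sets below are from the fit over probe sets unless stated. Values of named genes under alternative fits, and p-values of other genes of the pathway, are from fits over genes. Other probe sets of the same genes could lie beyond these limits. In the fit over probe sets, the interval of 11721377_x_at of BCL2 ran from -1.92 to -0.70. That of 11716799_at of FADD ran from 0.21 to 1.16.

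**Figure D1:**
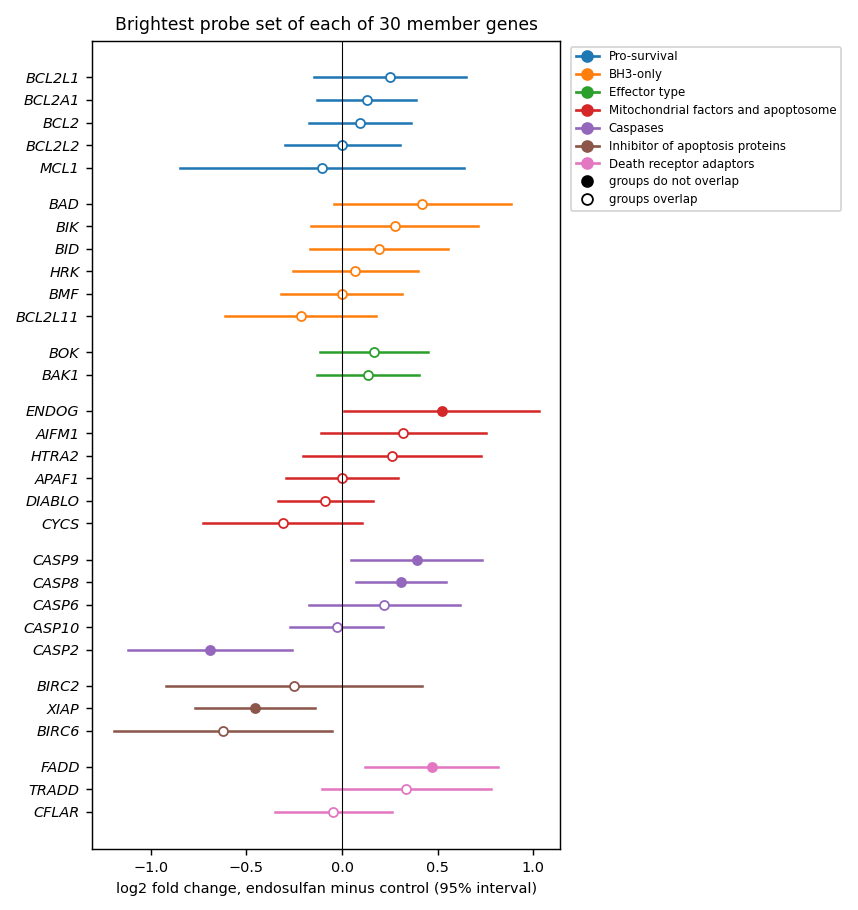
Log2 fold change, endosulfan minus control (horizontal axis), of the brightest probe set of each of 30 genes, with its 95% interval from limma (bar, 3 arrays each) and with genes ordered by role down the page. Filled points mark genes whose groups do not overlap, and 23 of the 30 intervals include 0.

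Several measures of the arrays themselves moved with the groups. Bacterial transcripts with a poly-A tail, which are added to the RNA before labelling, averaged 8.11 ± 0.60 in endosulfan arrays and 6.57 ± 1.02 in control arrays (log2, SD, n = 3 each, exact two-sided permutation p = 0.2, where 0.1 is the smallest possible). Control 2, at 7.73, was level with endosulfan 1 and 2, at 7.81 and 7.73, while endosulfan 3 was at 8.80 and controls 1 and 3 were at 6.13 and 5.84. Of the variance of all probe sets, 63.9% lay on principal component 1, which placed endosulfan 2 at -1.81 and control 2 at -2.33, side by side, with control 1 at -71.6 and endosulfan 1 at 61.8 at its ends. The part of these differences in the values of the members was not tested beyond the fits reported here. Because the mean of these spike-ins differed between the groups, a fit that includes it cannot tell exposure and spike-in level apart. In that fit 0 of all probe sets passed the adjusted threshold, those of EGR1 and FOS included. The smaller differences given below with the spike-ins in the fit therefore do not show where a difference comes from. Markers of the line were present: 11 of 12 sympathetic neuroblastoma markers were measured, all above the median of all probe sets, whereas 0 of 4 haematopoietic markers were. A level above the median did not by itself set the line apart. It was also reached by 3 of 5 epithelial, 3 of 4 endothelial and 3 of 3 glial markers. The median level was 11.7 for the sympathetic list, against 5.04, 5.82 and 6.59 for those lists and 3.62 for the haematopoietic one. The mean of the sympathetic markers was 10.8 to 10.9 in endosulfan arrays and 11.1 to 11.3 in control arrays, and 4 of the 11 were lower at an unadjusted p below 0.05, against 10.5% of all genes, while the median difference of the 11 was -0.01. Its part in the results was not tested.

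Of the pro-survival genes, 4 of 5 had a positive difference on the brightest probe set, and so did 15 of their 20 probe sets (75%, against 60.1% of all probe sets). Among the 20, 1 was higher and 2 were lower at an unadjusted p below 0.05, and the median log2 difference of the 5 genes was 0.09. BCL2, the founding member, which guards the mitochondrial membrane, had 6 probe sets that disagreed. Its probe set 11721377_x_at read 4.28, 4.80 and 4.52 in endosulfan arrays, against 6.29, 5.24 and 5.98 in control arrays. The groups stood apart, with control 2 the control nearest to the endosulfan arrays. The log2 fold change was -1.31 ± 0.26 (SE), a level 2.47-fold lower with endosulfan, and the largest difference in size among the 115 members, with an unadjusted p of 0.00116 and an adjusted p of 0.215 (limma). The probe set 11721376_at read 4.59, 5.03 and 5.17 in endosulfan arrays, against 6.21, 5.35 and 5.49 in control arrays, a log2 fold change of -0.75 ± 0.25 (SE) with an adjusted p of 0.242. The remaining 4 probe sets of BCL2 lay between -0.19 and 0.09. The brightest of them read 5.57, 5.59 and 5.48 with endosulfan and 5.36, 5.39 and 5.62 without, so that the groups overlapped and the difference was 0.09.

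MCL1, a short-lived guardian of the same membrane, had 4 probe sets with positive and 2 with negative differences. Just 1 was at an unadjusted p below 0.05, and it was higher. The brightest of its 6 probe sets read 8.99, 10.10 and 9.40 in endosulfan arrays, against 10.14, 9.40 and 9.26 in control arrays, and spanned more than a log2 unit within the endosulfan group. Its difference of -0.11 had a 95% interval from -0.85 to 0.64 in the fit over genes. A dim probe set, 11715484_a_at, read 4.02, 3.94 and 4.25 with endosulfan and 3.78, 3.81 and 3.77 in control arrays, with groups apart and a log2 fold change of 0.28 ± 0.11 (SE, adjusted p = 0.299, limma). Groups also stood apart for 11715485_a_at, the second brightest, and for 11715486_x_at, at 0.22 and 0.21 (unadjusted p = 0.0691 and 0.0794, limma). The 3 probe sets of BCL2L1, which encodes BCL-XL, all had positive differences, 0.22 to 0.25. The brightest of these averaged 8.35 ± 0.13 with endosulfan and 8.10 ± 0.31 in control (SD, n = 3 each), and the groups overlapped. BCL2L2, the gene of BCL-W, averaged 7.98 in each group, with an SD of 0.15 in both (n = 3 each). BCL2A1, a pro-survival gene known from blood cells, had 2 probe sets, at means of 2.93 and 2.75 over the arrays, below the median level of all probe sets, 4.92.

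The BH3-only genes, with 28 probe sets, held 0 higher and 2 lower at an unadjusted p below 0.05, and the median of the 6 genes was 0.13. BID, whose product caspase 8 cuts to link death receptors to mitochondria, again differed between its probe sets. The probe set 11745421_a_at read 7.50, 7.91 and 7.58 in endosulfan arrays, against 8.49, 8.31 and 8.10 in control arrays. Every endosulfan array lay below every control array, with a log2 fold change of -0.64 ± 0.15 (SE), an unadjusted p of 0.00292 and an adjusted p of 0.215 (limma). The other 3 probe sets of BID had differences of 0.18 to 0.23, and the brightest averaged 9.88 ± 0.10 with endosulfan and 9.68 ± 0.28 in control arrays (SD, n = 3 each). BAD, a BH3-only protein held inactive by survival kinases, had the highest difference of the brightest probe sets in this class, 0.42 ± 0.20 (SE, adjusted p = 0.350, limma). It read 10.28, 10.37 and 10.31 in endosulfan arrays, against 9.47, 10.31 and 9.93 in control arrays, and control 2 lay among the endosulfan arrays.

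BCL2L11, which encodes BIM, a BH3-only protein that binds all the main pro-survival proteins, had the most probe sets of any member, 14. They were evenly divided, 7 positive and 7 negative, from -0.64 to 0.40. The brightest averaged 7.07 ± 0.20 with endosulfan and 7.28 ± 0.27 in control arrays (SD, n = 3 each). The lowest, 11759889_a_at, had an unadjusted p of 0.0294 and an adjusted p of 0.281 (limma), and its groups overlapped. BIK, a BH3-only protein of the endoplasmic reticulum, had 3 probe sets between 0.14 and 0.27, with groups that overlapped. BMF, which is tethered to the cytoskeleton, averaged 6.44 in each group. HRK, induced in neurons deprived of nerve growth factor, had 1 probe set, at 4.53 ± 0.23 with endosulfan and 4.46 ± 0.10 in control arrays (SD, n = 3 each).

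The effector-type genes BAK1 and BOK, whose products can permeabilise mitochondria, had 8 probe sets, all with positive differences from 0.01 to 0.63 and 0 at an unadjusted p below 0.05. Among all probe sets 60.1% were positive. The brightest probe set of BOK read 7.47, 7.44 and 7.65 in endosulfan arrays, against 7.20, 7.40 and 7.46 in control arrays. Endosulfan 2 lay below control 3, and the difference was 0.17 ± 0.12 (SE). That of BAK1 averaged 6.99 ± 0.08 with endosulfan and 6.85 ± 0.13 in control arrays (SD, n = 3 each), a difference of 0.14 with a 95% interval from -0.13 to 0.40 in the fit over genes. With both genes averaged, the lowest endosulfan array and the highest control array were each at 0.04 relative to the mean of the 6 arrays.

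Of the factors released from mitochondria, ENDOG and CYCS stood at opposite sides. ENDOG, a mitochondrial nuclease, read 10.50, 10.53 and 10.49 in endosulfan arrays, against 9.49, 10.44 and 10.01 in control arrays. The endosulfan arrays were nearly level, and control 2 was just below them. The log2 fold change was 0.52 ± 0.22 (SE) with an adjusted p of 0.310 (limma), and it was 0.28 without control 1 and 0.13 with the spike-in level in the fit. All 3 probe sets of CYCS, the cytochrome c gene, had negative differences. Its probe set 11722003_at read 5.41, 5.35 and 5.22 in endosulfan arrays, against 6.00, 5.72 and 5.60 in control arrays. The groups stood apart, and the log2 fold change was -0.44 ± 0.13 (SE, adjusted p = 0.228, limma). A further probe set, 11753803_x_at, read 8.13, 8.29 and 8.26 with endosulfan and 8.60, 8.38 and 8.59 in control arrays, a log2 fold change of -0.30 ± 0.11 (SE). The brightest, at 9.98 ± 0.35 and 10.29 ± 0.10 (SD, n = 3 each, endosulfan and control), had groups that overlapped.

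The remaining genes of this class had 0 probe sets at an unadjusted p below 0.05, and the groups overlapped in each. HTRA2, a serine protease that binds IAPs after its release, had 4 probe sets with differences of 0.26 to 0.29, and control 2 read 10.07, above all endosulfan arrays of the brightest. AIFM1, a flavoprotein that can move to the nucleus, averaged 8.08 ± 0.31 with endosulfan and 7.76 ± 0.23 in control arrays (SD, n = 3 each). DIABLO, also called SMAC, an antagonist of IAPs, averaged 10.61 ± 0.03 with endosulfan and 10.70 ± 0.11 in control arrays (SD, n = 3 each). APAF1, the scaffold that activates caspase 9, had 4 probe sets, each below the median level of all probe sets, with differences of at most 0.19 in size.

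The caspases held both directions. CASP2, an initiator caspase that can be activated on the PIDDosome, had negative differences on all 3 probe sets, of which 2 had groups apart. The brightest read 8.57, 8.90 and 8.59 in endosulfan arrays, against 9.64, 9.00 and 9.49 in control arrays. Control 2 was the control closest to the endosulfan arrays. The log2 fold change was -0.69 ± 0.18 (SE), 1.61-fold lower with endosulfan, with an unadjusted p of 0.00544 and an adjusted p of 0.215 (limma). The probe set 11720034_x_at read 5.84, 6.27 and 6.09 with endosulfan and 6.73, 6.48 and 6.77 in control arrays, a log2 fold change of -0.60 ± 0.14 (SE), also with an adjusted p of 0.215 (limma). With the spike-ins in the fit, the difference of the brightest was -0.27. The third and dimmest was at -0.08.

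CASP9, the caspase activated on APAF1, had both probe sets with groups apart. The brightest read 8.50, 8.16 and 8.28 in endosulfan arrays, against 7.72, 8.13 and 7.92 in control arrays. Endosulfan 2 and control 2 were nearly level. The log2 fold change was 0.39 ± 0.14 (SE, adjusted p = 0.278, limma), and it was 0.29 without control 1, 0.19 without both control 1 and endosulfan 1, and 0.22 with the spike-ins in the fit. The dimmer probe set had a difference of 0.17 (adjusted p = 0.459, limma).

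CASP8, the caspase of death receptors, was dim: its 8 probe sets had means from 2.74 to 4.55, all below the median level. The brightest read 4.74, 4.64 and 4.74 in endosulfan arrays, against 4.46, 4.38 and 4.36 in control arrays, with SDs of 0.06 and 0.05. Its log2 fold change was 0.31 ± 0.10 (SE, adjusted p = 0.237, limma), while the other 7 probe sets of CASP8 ran from -0.32 to 0.20 and the average of all was at 0.07. With the spike-ins in the fit the brightest was at 0.30 (unadjusted p = 0.129, limma). CASP10, the neighbour of CASP8 in sequence and function, was likewise below the median on its 5 probe sets, with differences from -0.03 to 0.16. CASP6, an executioner caspase, averaged 6.39 ± 0.06 with endosulfan and 6.16 ± 0.33 in control arrays (SD, n = 3 each), and the groups overlapped.

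**Figure D2:**
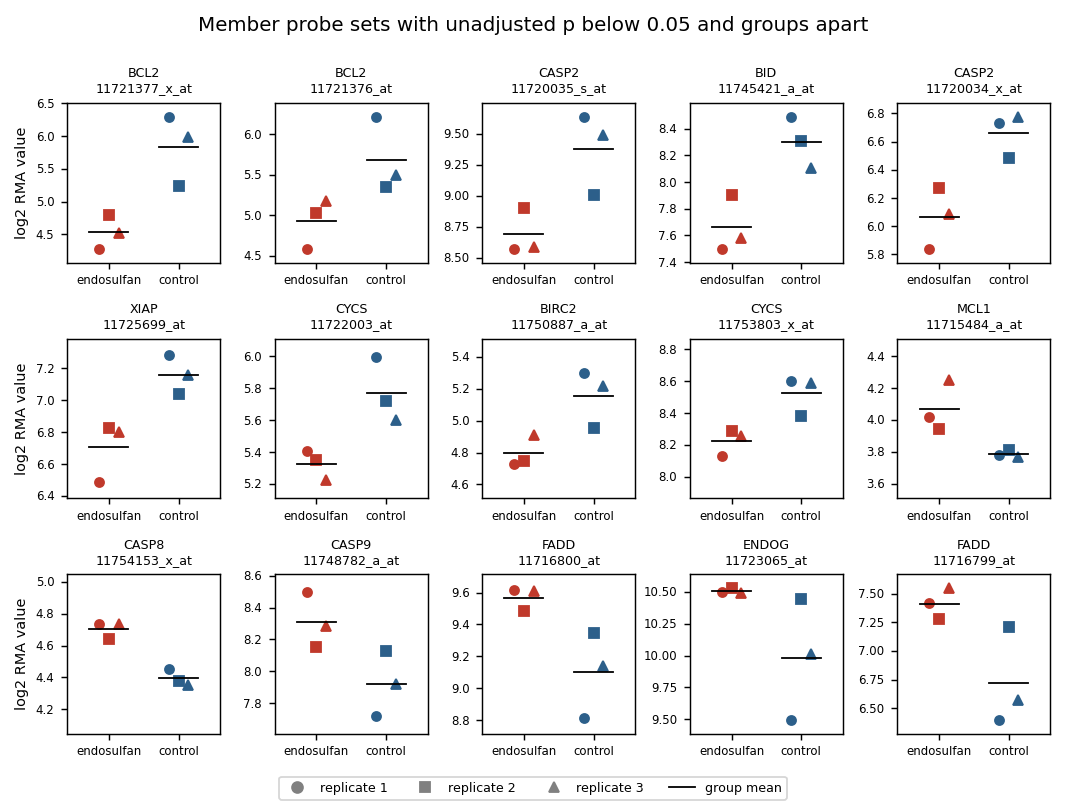
Log2 RMA values (vertical axes, which differ between panels and span at least 1 unit) of the 15 member probe sets at an unadjusted p below 0.05 whose groups do not overlap, in endosulfan arrays (red, left) and control arrays (blue, right), with replicate numbers by symbol and group means as lines. The panels run from the lowest log2 fold change, -1.31 for BCL2, to the highest, 0.69 for FADD, and control 2 (square) is the control nearest to the endosulfan mean in 12 of the 15. The same share over all probe sets was not counted.

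The IAP genes had the lowest median of the classes. The brightest probe sets of all 3 measured genes had negative differences, with a median of -0.45, and of the 12 probe sets 4 were positive (60.1% of all probe sets were) and 8 negative. Of the 12, 3 were lower at an unadjusted p below 0.05 (25%, against 9.21% of all). XIAP, which binds and blocks caspases directly, read 6.49, 6.83 and 6.80 in endosulfan arrays, against 7.28, 7.04 and 7.16 in control arrays. The groups stood apart, and the log2 fold change was -0.45 ± 0.13 (SE, unadjusted p = 0.00856, adjusted p = 0.224, limma). The 2 dimmest probe sets of XIAP were at 0.02 and 0.09. With its probe sets averaged XIAP was at -0.19, and without control 1 and endosulfan 1 the brightest was at -0.28. With the spike-ins in the fit the brightest was at -0.39 (unadjusted p = 0.120, limma). BIRC6, a very large ubiquitin-conjugating enzyme of the family, read 4.43, 4.95 and 4.49 in endosulfan arrays, against 5.47, 4.71 and 5.56 in control arrays. Control 2 lay below endosulfan 2, so the groups overlapped, and the log2 fold change was -0.62 ± 0.24 (SE, adjusted p = 0.292, limma). With the spike-ins in the fit it was -0.0044 (unadjusted p = 0.986, limma), and with the probe sets of BIRC6 averaged it was -0.27. BIRC2, which encodes the ubiquitin ligase cIAP1, had 4 of 5 probe sets negative. Its probe set 11750887_a_at read 4.73, 4.75 and 4.91 with endosulfan and 5.30, 4.95 and 5.22 in control arrays, a log2 fold change of -0.36 ± 0.13 (SE, adjusted p = 0.262, limma). Its brightest probe set overlapped between the groups, at 6.28, 7.45 and 6.80 with endosulfan and 7.23, 6.75 and 7.29 in control arrays.

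The mean of the IAP class showed the arrays' order. Relative to the mean of the 6 arrays it was -0.55, 0.13 and -0.25 in endosulfan 1, 2 and 3, against 0.38, -0.11 and 0.39 in control 1, 2 and 3. Endosulfan 2 was thus above control 2, and the groups overlapped. With the mean of the spike-ins as a covariate, the median difference of the class was -0.0044, and without control 1 and endosulfan 1 it was -0.28. The median with the covariate is the value of BIRC6 alone, and XIAP was at -0.39 in the same fit. The mean of the death receptor adaptors was 0.24, 0.04 and 0.10 in endosulfan arrays, against -0.26, 0.04 and -0.16 in control arrays, and endosulfan 2 and control 2 were level to the second decimal.

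Among those adaptors, FADD, which couples death receptors to caspase 8, had 2 of 3 probe sets with groups apart. The brightest read 9.61, 9.49 and 9.61 in endosulfan arrays, against 8.81, 9.34 and 9.14 in control arrays, a log2 fold change of 0.47 ± 0.15 (SE, adjusted p = 0.235, limma). With the spike-ins in the fit it was 0.23, and without control 1 and endosulfan 1 it was 0.30. The probe set 11716799_at read 7.42, 7.28 and 7.55 with endosulfan and 6.40, 7.21 and 6.57 in control arrays, and its log2 fold change of 0.69 ± 0.21 (SE, adjusted p = 0.228, limma) was the highest among the members. In each case control 2 was the nearest control, and the third probe set was at -0.10. TRADD, the adaptor of the TNF receptor, averaged 8.33 ± 0.19 with endosulfan and 7.99 ± 0.35 in control arrays (SD, n = 3 each), with groups that overlapped. CFLAR, the gene of FLIP, which resembles caspase 8 and competes with it at FADD, had 9 probe sets from -0.40 to 0.20, and its brightest was at -0.05.

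**Figure D3:**
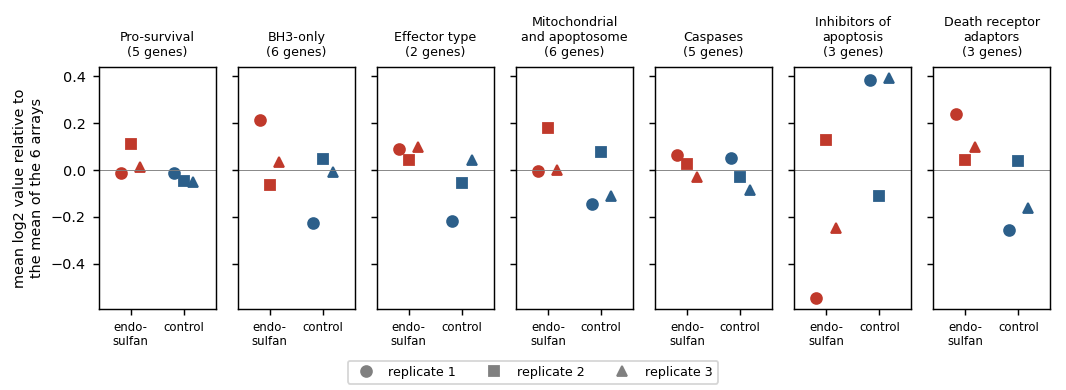
Mean log2 value of each class of genes relative to the mean of the 6 arrays (vertical axis) in endosulfan arrays (red, left) and control arrays (blue, right), with replicate numbers by symbol. In the IAP class the arrays ran from -0.55 in endosulfan 1 to 0.39 in control 3, and in the pro-survival class from -0.05 to 0.11.

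Side by side, the medians of the brightest probe sets were 0.09 for the pro-survival genes, 0.13 for the BH3-only genes, 0.15 for the effector type, 0.13 for mitochondrial factors and apoptosome, 0.22 for the caspases, -0.45 for the IAPs and 0.34 for the death receptor adaptors, against 0.05 over all genes. These medians moved when 1 array was left out: 0.06 to 0.18 for the pro-survival genes, 0.03 to 0.22 for BH3-only, 0.08 to 0.21 for the effector type, 0.03 to 0.19 for the mitochondrial class, 0.03 to 0.30 for the caspases, -0.55 to -0.35 for the IAPs and 0.17 to 0.52 for the adaptors. The lowest values of the BH3-only, effector, mitochondrial and adaptor classes were without control 1 and that of the caspases without control 3, while the highest of the adaptors was without control 2. Without both control 1 and endosulfan 1 the BH3-only median was -0.05 and the mitochondrial one -0.02, so that both turned sign. Differences between classes were not tested, since genes are not replicates. Probe sets of 1 gene can share probes and often disagreed: of the 25 genes with several, 13 had probe sets of both signs. The maker's suffix x, for probes that can also match other transcripts, marked 30 of the 115, and the suffix s, for probes shared with other genes, marked 8. The probe set of BCL2 at -1.31 has the suffix x, as does its brightest at 0.09, while the one at -0.75 has neither suffix. The brightest of CASP2 has the suffix s, and the brightest of CASP8 has the suffix x.

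**Figure D4:**
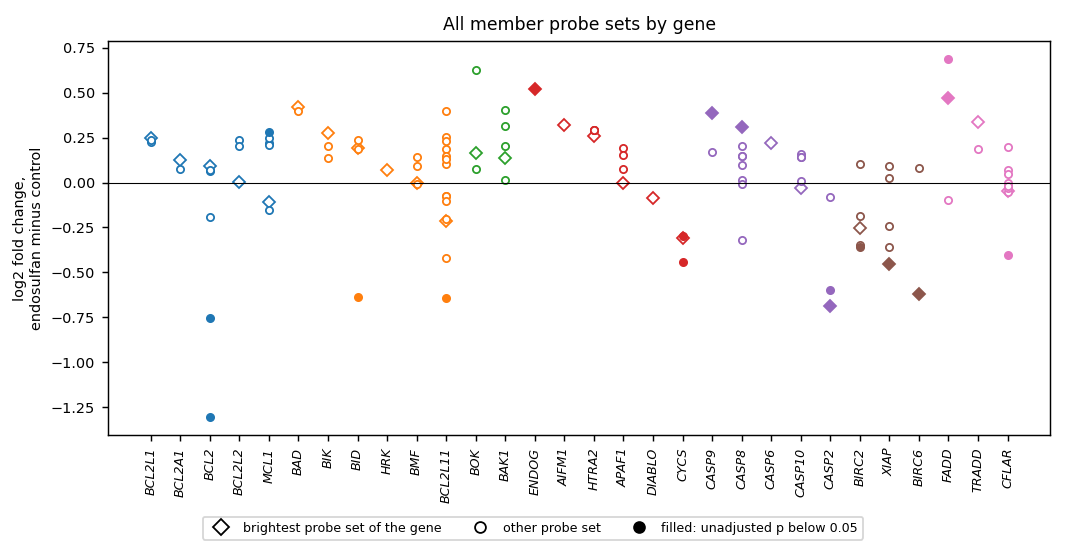
Log2 fold change, endosulfan minus control (vertical axis), of all 115 member probe sets by gene, with diamonds for the brightest probe set of a gene and filled symbols for an unadjusted p below 0.05. The filled symbols are 6 above 0 and 12 below, and BCL2 has the lowest at -1.31 although its brightest probe set is at 0.09.

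The controls lay at unequal distances from the endosulfan arrays. Of the 15 probe sets at an unadjusted p below 0.05 with groups apart, control 1 was the control farthest from the endosulfan mean in 12 and control 2 in 0, and control 2 was nearest in 12. Neither the share of all probe sets that meet both conditions nor the order of the controls in them was counted. This order can therefore not be called a trait of the members. The counts at an unadjusted p below 0.05 moved with control 1 and control 2, as they did over the whole array. Without control 1 there were 3 member probe sets higher and 7 lower (2.61% and 6.09%, against 3.86% and 5.74% of all probe sets). Without control 2 there were 17 higher and 15 lower (14.8% and 13.0%, against 8.71% and 10.6%). Without endosulfan 1 there were 3 higher and 9 lower, as there were without control 3, and without endosulfan 2 there were 10 and 13. The shares of all probe sets, higher and lower, were 3.43% and 5.97% without endosulfan 1 and 3.79% and 7.46% without control 3. They were 8.18% and 11.5% without endosulfan 2.

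The members also differed by a property that the list did not use. Across the 30 genes, the log2 fold change was lower for genes with a longer genomic span (Spearman's rho = -0.32, Pearson's r with log10 length = -0.34), as it was across 18109 genes of the array (rho = -0.28, r = -0.28). These are descriptions across genes measured on the same 6 arrays, and genes are not independent replicates. Single genes departed from this order: XIAP and CASP8 span 54.3 and 54.2 kb with differences of -0.45 and 0.31, and CYCS, of 6.61 kb, was at -0.31. BIRC6, of 262 kb, and CASP2, of 19.3 kb, had the lowest differences. With all genes placed in 5 bins of nearly equal size by length, the median log2 difference was 0.11 in the shortest bin and -0.04 in the longest. The part of length in the members' differences was not tested.

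Since EGR1 was the gene that passed in these cells, the RefSeq promoter windows (250 bases before to 50 after a start, build GRCh38.p14) of the 25 members that have one were searched on both strands for GCGTGGGCG and GCGGGGGCG, forms of the motif bound by EGR factors, and for the cyclic AMP response element TGACGTCA. The G form was found in 2 of the 25 genes (8%), BCL2L11 and CASP9, against 6.14% of 27305 genes. The T form was found in 0, against 0.960%, and the cyclic AMP element in 1, BIRC2, against 2.25%. A match describes the letters and is neither a binding site nor a cause. The 2 stretches with the G form are shown in the direction of their genes with the motif in capitals, as they are the members' matches to the factor whose transcript passed. That of BCL2L11 is chr2:111120785-111120893 on the plus strand, with the motif starting 79 bases before the start, and that of CASP9 is chr1:15524268-15524296 on the minus strand, with the motif starting 71 bases before the start.
BCL2L11: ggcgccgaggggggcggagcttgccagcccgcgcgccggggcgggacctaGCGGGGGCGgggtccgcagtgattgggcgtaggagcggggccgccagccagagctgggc
CASP9: aggccctgggGCGGGGGCGggtcctgggg

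The brightest probe sets of these 2 genes differed in sign: BCL2L11 was at -0.22 and CASP9 at 0.39, and neither passed.

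Other genes of the pathway, in 4 lists of 53 measured genes set by symbol, held 2 higher and 2 lower genes at an unadjusted p below 0.05, where 6.64% and 10.5% of all genes did so, and 0 passed with limma after adjustment. Among 18 further BCL2 family and BAG genes, BCL2L12, an atypical family member, averaged 9.44 ± 0.06 with endosulfan and 8.90 ± 0.27 in control arrays (SD, n = 3 each). BCL2L14 was at 3.85 ± 0.12 and 3.50 ± 0.16 in the same order, and BNIP1, a SNARE protein of the endoplasmic reticulum, at 7.55 ± 0.17 and 7.94 ± 0.10 (SD, n = 3 each). Their adjusted p over all genes were 0.201, 0.245 and 0.220 (limma). BAX, the best known effector, named here after its values were seen, averaged 9.59 ± 0.18 with endosulfan and 9.63 ± 0.17 in control arrays (SD, n = 3 each). Of 20 genes of death receptors, ligands and signalling, TRAF5, a signalling adaptor, was at 5.08 ± 0.25 with endosulfan and 5.50 ± 0.15 in control arrays (SD, n = 3 each, adjusted p = 0.252, limma). Neither the 9 further caspase and IAP genes nor the 6 genes of execution and the mitochondrial channel had a gene at an unadjusted p below 0.05.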

How the data were processed

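RNA of 6 SH-SY5Y samples was measured on one-colour arrays. The authors deposited 1 table of log2 values, which come from Affymetrix Expression Console with RMA per the submitters' processing notes, with no version or option stated. Since RMA sets the arrays to shared quantiles, a shift of most transcripts one way is removed. From 49395 rows, 102 control probe sets were set aside. Of the 49293 tested, 44988 named 1 gene in the platform annotation, 1832 several and 2473 none. Scanner signals were not used here, so dim probe sets stayed in, and the number of arrays limits the precision.

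Endosulfan was compared with control in limma 3.58.1 (R 4.3.3), two-sided, with Benjamini-Hochberg adjustment over all probe sets or over 18132 genes, each by its brightest one-gene probe set. Pearson's r between arrays across probe sets was 0.964 to 0.995 over the 15 pairs, with 0 identical. The members, lists, motifs and alternatives were chosen with earlier results of these data known. Every member is named, and all 6 values are given for member probe sets at an unadjusted p below 0.05 whose groups do not overlap, for the brightest probe set of a class without one, and for further brightest probe sets picked after their values were seen. The other pathway lists took symbols of the BCL2, BAG, BNIP, caspase, IAP, death receptor, TRAF and RIPK families with DFFA, DFFB, PARP1 and the VDAC genes, and up to 4 genes per list at an unadjusted p below 0.05 are named. Epithelial, endothelial and glial markers had 3 of 5, 3 of 4 and 3 of 3 measured genes above the median level and 0 at an unadjusted p below 0.05. Gene spans, matched by gene identifier with symbols that were the same for all 30 genes, and promoters are from RefSeq GRCh38.p14. In a simulation of the probe-set comparison, noise was drawn independently for each value. Changes of 0.585, 1, 2 and 3 (log2) were recovered in 4%, 58%, 90% and 98% of cases, with 9 false calls among 134 over all sizes. The real arrays share variation, with 63.9% of the variance on principal component 1, so these rates cannot be carried over to them. Figures were drawn with matplotlib 3.10.9.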

Additional observations from a re-analysis of the deposited data

Results flagged for a closer look

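Both kinds of control probe set, which were left out of the genes tested, had higher means on endosulfan arrays. The spike-in mean entered the gene fits only as a covariate in an alternative. The difference, endosulfan minus control on the log2 scale, was 1.55 for the bacterial spike-ins. For the hybridisation controls, which are added after labelling, it was 0.633, with means of 10.93 ± 0.18 on endosulfan and 10.29 ± 0.29 on control arrays (SD, n = 3 each). The exact two-sided permutation p for the hybridisation controls was 0.1, and no lower p can be reached with 3 arrays against 3.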

How the results depend on the processing

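Quantile normalisation, centring, averaging the probe sets of each gene, and trended, robust moderation kept each count of members within 1.5 times its reported value. Counts below are at an unadjusted p below 0.05, as higher and lower, against 6 and 12 probe sets and 4 and 3 genes. With array weights, whose estimation stopped before convergence, they were 23 and 18 probe sets and 10 and 5 genes, and 16 probe sets passed the adjusted threshold. Under these weights 17.4% of all probe sets were higher and 15.3% lower, against 20% and 15.7% of the members. The poly-A spike-in covariate left 0 and 1 probe sets and 0 and 0 genes. It also left 0.893% of all probe sets higher and 1.14% lower, with 0 past the adjusted threshold. Without control 1 and endosulfan 1 there were 3 and 7 probe sets and 2 and 1 genes. These probe sets were 2.61% and 6.09% of the members, against 3.52% and 4.94% of all probe sets. A fold limit of 1.5 left 1 and 7 probe sets and 0 and 2 genes. These probe sets were 0.870% and 6.09% of the members, against 0.783% and 4.97% of all probe sets. Probe sets above the median level gave 3 and 10 probe sets with 2 higher genes, and no moderation gave 2 higher genes. Of all probe sets above the median level, 6.66% were higher and 12.7% lower, and without moderation 5.31% of all genes were higher. Leaving out 1 array at a time gave 3 to 17 probe sets higher and 7 to 15 lower, and 1 to 6 genes higher and 2 to 5 lower. Over all probe sets the shares ran from 3.22% to 8.71% higher and from 5.64% to 11.5% lower. Over all genes they ran from 3.04% to 10.1% higher and from 5.88% to 13.6% lower. None of the 7 genes at an unadjusted p below 0.05 changed sign in the alternatives run for it (CASP8 is too dim for the filter at the median level), but BIRC6 was at -0.0044 with the spike-in covariate. No adjusted p of theirs fell below 0.0668 except with array weights, where all 7 passed. With the replicate number as a block, 4 and 10 probe sets and 2 and 2 genes were counted and 0 passed. The same fit gave 3.24% of all probe sets higher and 6.23% lower, and 0 of them passed. The values gave no sign that the numbers pair the arrays: the deviations of same-numbered arrays correlated at -0.51, -0.40 and 0.05, and no array correlated best with its own number. Deviations from the mean of 3 arrays are tied to each other, so this check cannot show whether same-numbered arrays were handled together. With 3 arrays a group, changes under 2-fold can be missed, at a rate that was not measured on these arrays. Dim probe sets have no measure of signal over background here.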
